A study of Mus musculus with 10 samples.

Results

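Crypt stem cell genes are 10 genes, Lgr5, Olfm4, Ascl2, Smoc2, Axin2, Cdca7, Rgmb, Tnfrsf19, Cd44 and Sox9, picked by name out of the 54532 genes listed in the deposited count table, and each name matched 1 row. Their RNA was measured in sorted epithelial cells of 5 Gucy2c-GFP mice, which were litter-matched, of the CD1/ICR strain and 10 weeks old, and the tissue was small intestine. In these mice a transgene drives green fluorescent protein from the promoter of Gucy2c, the receptor guanylyl cyclase of the intestinal epithelium. From each mouse, 20000 brightly fluorescent cells (GUCY2Chi) and 20000 cells of medium fluorescence (GUCY2Cmed, called both Medium and Lo in the labels) gave 1 library each, 10 in all. The labels number the libraries of each group 2, 7, 12, 14 and 15, and these numbers were taken as those of the mice, which the labels do not state. Both groups carry the same transgene and were untreated, so they differ by the gate on reporter brightness, and GUCY2Cmed cells stand for the bulk of the epithelium.

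The small intestinal epithelium is renewed from crypt base columnar stem cells, which lie between Paneth cells at the bottom of the crypt. Wnt ligands bind Frizzled and LRP receptors there and stabilise beta-catenin, which joins TCF factors on target genes, and R-spondins bound to LGR receptors strengthen the signal by restraining the ubiquitin ligases that remove Frizzled. The genes described here are used as markers of these cells or as Wnt targets of the crypt base, although several are also active in other epithelial cells.

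Levels are cpm, the reads of a gene scaled to a fixed library total after edgeR's TMM correction, given as mean ± SD over 5 mice. GUCY2Chi and GUCY2Cmed libraries were set against each other with the quasi-likelihood test of edgeR across the 15703 genes that passed a filter on low counts, with Benjamini-Hochberg adjustment, and a gene is called at an adjusted p under 0.01. The libraries held between 10903958 and 15307932 counts. Gucy2c itself was at 1322 ± 526 cpm in GUCY2Chi and 404 ± 64.7 cpm in GUCY2Cmed cells (adjusted p = 0.00187, edgeR). All 10 markers of enteroendocrine cells were called higher in GUCY2Chi cells. At least Pax6 among them, below 0.5 cpm in every GUCY2Cmed library, passed the filter through GUCY2Chi libraries alone. Summed cpm of 11 enterocyte markers, 1 of them called lower, was between 2943 and 3929 in the GUCY2Chi libraries of mice 2, 7 and 14, 29486 and 29910 in those of mice 12 and 15, and between 53018 and 70845 in GUCY2Cmed libraries. Summed cpm of 7 forebrain markers ran from 78.6 to 1202 in GUCY2Chi and from 28.4 to 677 in GUCY2Cmed libraries, although the labels name small intestine. None of the 6 tested was called.

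All 10 crypt stem cell genes passed the filter. Cd44 and Rgmb rose in GUCY2Chi cells, Cdca7 fell, and 7 were not called. With the mouse as a replicate block, of the 10 genes 1 was called higher (Cd44) and 0 lower, beside 8.24% and 4.96% of all genes. Across all genes tested without the block, 13.9% were called higher and 8.79% lower, so 2 and 1 of 10 are close to that background. Their median log2 fold change was -0.09, beside 0.09 over all genes tested. The same 3 genes were the ones whose groups did not overlap, where 16.7% of all genes did not overlap with GUCY2Chi higher and 13.2% with GUCY2Chi lower. In bulk RNA, fewer cells of a type and less RNA per cell cannot be told apart.

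**Figure D1:**
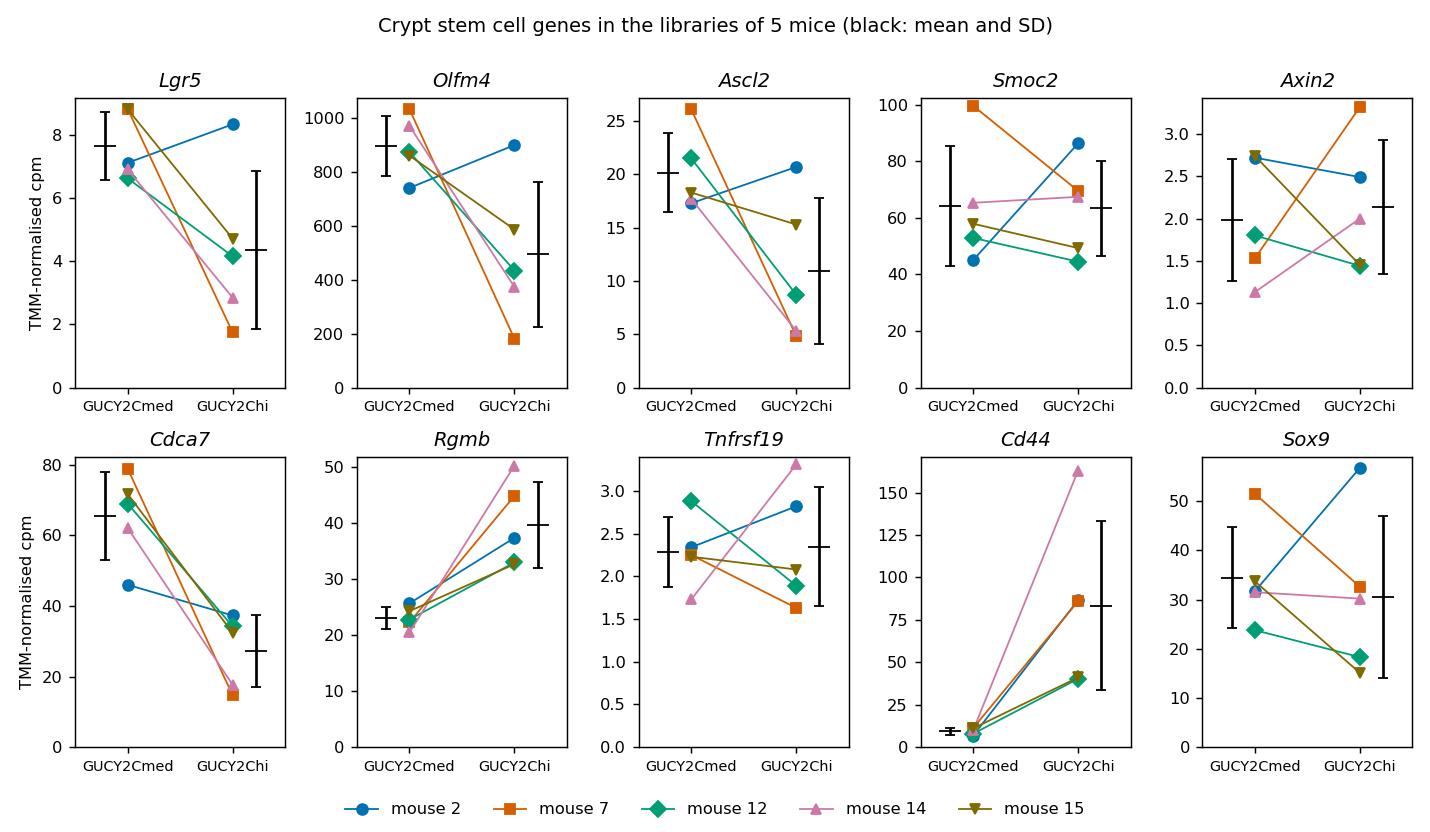
Level of each crypt stem cell gene (TMM-normalised cpm, linear axis from 0) in GUCY2Cmed and GUCY2Chi libraries; lines join the libraries of 1 mouse, and black bars give mean and SD over 5 mice. Cd44 and Rgmb were higher and Cdca7 lower in all 5 mice, whereas mouse 2 went up for Lgr5, Olfm4 and Ascl2 and the other 4 went down.

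The RefSeq promoter table (GRCm38.p6) held 7 of the 10 genes, Lgr5, Smoc2 and Sox9 being the others. Shown are the 250 bases before the RefSeq start of Cd44, which rose most, and of Ascl2 and Olfm4, which followed each other across libraries as described later. Each is written 5′ to 3′ on the strand of the gene. Capitals mark a match to 1 of 4 short motifs, searched on both strands. CTTTGA is part of the site that TCF factors bind, and ACAAAG is a core shared by TCF and SOX factors. CAGCTG is an E-box, the kind of site that ASCL factors bind, and reads the same on both strands. The box named CCAAT, which reads ATTGG on the other strand, was added after the sequences had been read.
Cd44, chr2:102901666-102901915, minus strand: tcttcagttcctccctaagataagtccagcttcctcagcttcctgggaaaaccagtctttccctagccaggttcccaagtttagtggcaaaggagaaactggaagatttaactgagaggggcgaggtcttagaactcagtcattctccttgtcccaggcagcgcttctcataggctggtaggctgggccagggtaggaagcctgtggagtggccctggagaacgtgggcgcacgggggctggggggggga
Ascl2, chr7:142969265-142969514, minus strand: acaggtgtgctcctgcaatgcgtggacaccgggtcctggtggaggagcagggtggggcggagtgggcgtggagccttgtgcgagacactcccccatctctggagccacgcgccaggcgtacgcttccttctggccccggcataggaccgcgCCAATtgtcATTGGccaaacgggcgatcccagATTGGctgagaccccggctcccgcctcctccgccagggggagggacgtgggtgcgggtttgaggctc
Olfm4, chr14:80000052-80000301, plus strand: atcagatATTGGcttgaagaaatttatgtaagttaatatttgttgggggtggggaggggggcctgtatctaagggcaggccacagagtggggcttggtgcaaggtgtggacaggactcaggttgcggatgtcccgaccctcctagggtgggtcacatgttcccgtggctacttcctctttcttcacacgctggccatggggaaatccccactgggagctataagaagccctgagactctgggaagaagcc
The Cd44 and Ascl2 windows end where the gene begins in the deposited table, and the Olfm4 window lies inside the longer gene model that the table gives. The Ascl2 window held 3 matches, all to the CCAAT box, with their first bases 99, 90 and 67 bases before the start. The Olfm4 window held 1, to the CCAAT box at 243 bases, and the Cd44 window none. Over all 10 windows of the 7 genes, CTTTGA lay in 1 window of Tnfrsf19, CAGCTG in that same window, ACAAAG in 1 window of Rgmb, and CCAAT in 4 windows of Ascl2, Olfm4 and Rgmb. Of all 32851 promoter windows of this length, 13.8% held CTTTGA, 16.5% ACAAAG, 13% CAGCTG and 33.8% CCAAT.

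Lgr5, the R-spondin receptor that defines crypt base columnar cells, was a low transcript in both groups. In GUCY2Chi cells its cpm was 8.34 in mouse 2, 1.75 in mouse 7, 4.16 in mouse 12, 2.85 in mouse 14 and 4.72 in mouse 15, resting on 29 to 124 reads. In GUCY2Cmed cells it was 7.12, 8.83, 6.63, 6.91 and 8.82 in the same order of mice, resting on 76 to 110 reads. The GUCY2Chi libraries were spread over a 4.77-fold range and the GUCY2Cmed libraries over a 1.33-fold range, and the groups overlapped through mouse 2, the one mouse with the higher level in GUCY2Chi cells. The log2 fold change was -0.81 ± 0.37 (SE, n = 5 per group), with a 95% interval from -1.61 to -0.01, and was not called (adjusted p = 0.102, edgeR). The exact two-sided permutation test over the libraries, 1 of 10 such tests and not adjusted, gave p = 0.0317. That test ignored that each mouse gave both a GUCY2Chi and a GUCY2Cmed library.

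Olfm4, a secreted glycoprotein abundant in the same stem cells, was the most abundant of the 10 genes. Its cpm in GUCY2Chi cells was 899, 181, 434, 373 and 586 in mice 2, 7, 12, 14 and 15. In GUCY2Cmed cells it was 740, 1032, 873, 970 and 860. Again only mouse 2 had the higher level in GUCY2Chi cells, mouse 7 had the lowest, and the groups overlapped. Its log2 fold change was -0.86 ± 0.35, with a 95% interval from -1.63 to -0.08, and the gene was not called (adjusted p = 0.0748, edgeR). The exact permutation p was 0.0317, not adjusted and without regard to the mouse.

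Ascl2, the basic helix-loop-helix factor that maintains these stem cells downstream of Wnt, had the same pattern. Its cpm in GUCY2Chi cells was 20.7, 4.82, 8.71, 5.32 and 15.3 in mice 2, 7, 12, 14 and 15. In GUCY2Cmed cells it was 17.3, 26.1, 21.5, 17.7 and 18.3. The level of mouse 2 in GUCY2Chi cells lay inside the GUCY2Cmed range and the other 4 lay below it. Between groups the log2 fold change was -0.88 ± 0.38, with a 95% interval from -1.71 to -0.05, and was not called (adjusted p = 0.0884, edgeR). The exact permutation p was 0.0397, not adjusted and without regard to the mouse.

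The 3 genes ranked the GUCY2Chi libraries in the same order, mouse 2, 15, 12, 14 and 7 from high to low. In GUCY2Cmed libraries, where each varied less, mouse 7 was highest for all 3 and the rest of the order differed. Reads of Olfm4 per read of Lgr5 in the same library stayed between 97.5 and 140 across all 10 libraries, a 1.44-fold range. Reads of Ascl2 per read of Lgr5 ranged from 1.86 to 3.25. These ratios overlapped between the groups, while the genes' own levels covered a much wider range. By the root mean square difference of log2 cpm over the 10 libraries, each gene centred on its own mean, Olfm4 was the nearest of 9975 genes with at least 5 cpm to Lgr5 (0.177). Next came Slc12a2, a sodium, potassium and chloride cotransporter of crypt cells that is also a stem cell signature gene (0.230), and Ascl2 (0.259). For Olfm4 the nearest were Lgr5 (0.177), Ascl2 (0.261) and Ifitm3, an interferon-induced membrane protein (0.298). All these profiles come from the same libraries, so they share depth and cell composition.

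**Figure D2:**
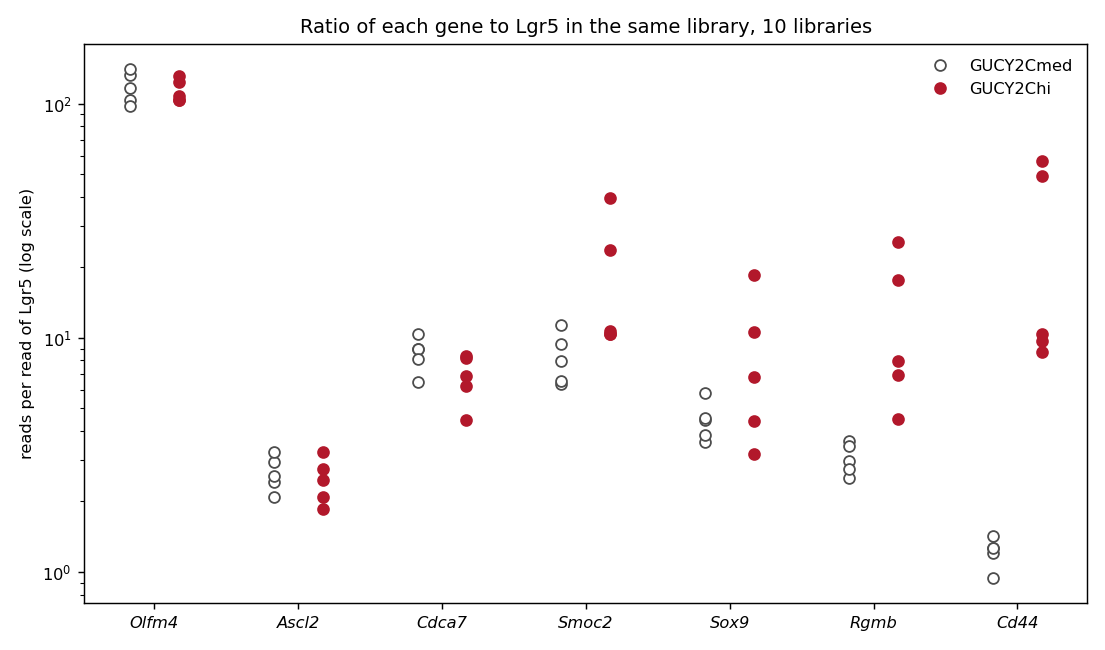
Reads of 7 genes per read of Lgr5 in the same library (log axis), open circles for the 5 GUCY2Cmed and filled circles for the 5 GUCY2Chi libraries. Olfm4 and Ascl2 sit in narrow overlapping bands in both groups, and the ratios of Rgmb and Cd44 do not overlap between groups.

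Mouse 2, whose GUCY2Chi library was highest for Lgr5, Olfm4 and Ascl2, also had the highest summed cpm of 8 Paneth markers among GUCY2Chi libraries. That sum was 46058 in mouse 2, 6716 in mouse 7, 11626 in mouse 12, 29268 in mouse 14 and 8047 in mouse 15, and between 6631 and 15518 in GUCY2Cmed libraries. The sum of 6 goblet markers was 12019 in mouse 2 and between 2350 and 4634 in the other GUCY2Chi libraries. Neither list had a gene called in either direction. Their part in the levels of the stem cell genes was not tested. Without the GUCY2Chi library of mouse 2 the log2 fold changes were further from 0 and still not called, at -1.12 for Lgr5, -1.12 for Olfm4 and -1.16 for Ascl2.

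Cdca7, a Myc- and E2F-responsive nuclear protein active in dividing cells and part of the Lgr5 stem cell signature, fell in GUCY2Chi cells. Its cpm there was 37.3, 14.7, 34.2, 17.7 and 32.4 in mice 2, 7, 12, 14 and 15. In GUCY2Cmed cells it was 46.0, 78.9, 69.0, 62.1 and 71.7. The groups did not overlap and the level was lower in 5 of 5 mice, least so in mouse 2. The log2 fold change was -1.27 ± 0.27, a 2.4-fold lower level (adjusted p = 0.00426, edgeR). The call was lost with the mouse as a replicate block (adjusted p = 0.0164, edgeR; 4.96% of all genes called lower), with that block in limma-voom (adjusted p = 0.0100 after rounding, not below the threshold; 8.8% called lower) and with library size alone for scaling (0.0126). It was also lost without the GUCY2Chi library of mouse 14 or the GUCY2Cmed library of mouse 12 or 15, with log2 fold changes between -1.36 and -1.08 when any single library was left out.

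Genes of the cell cycle fell beside it. Of 12 proliferation genes, 10 were called lower and none higher, with a median log2 fold change of -1.59. Across all genes tested, 8.79% were called lower. Their summed cpm in GUCY2Chi libraries was 194, 108, 260, 134 and 241 in mice 2, 7, 12, 14 and 15, and between 346 and 754 in GUCY2Cmed libraries. Mice 7 and 14 were the lowest for this sum and for Cdca7, and also for Lgr5, Olfm4 and Ascl2, among GUCY2Chi libraries. With the mouse as a replicate block no proliferation gene was called, while the log2 fold changes were of similar size, such as -1.86 for Top2a (adjusted p = 0.0107, edgeR), beside -1.79 without the block, and -0.82 for Pcna (adjusted p = 0.0819, edgeR), beside -0.90. Reads of Cdca7 per read of Lgr5 overlapped between groups, from 4.47 to 8.38 in GUCY2Chi and from 6.46 to 10.4 in GUCY2Cmed libraries. In profile Cdca7 was 13th of 9975 genes nearest to Lgr5 (0.331) and 10th nearest to Olfm4 (0.335).

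Cd44, the hyaluronan receptor and a beta-catenin target of crypt cells, had the largest change of the 10 genes. Its cpm in GUCY2Chi cells was 86.7, 86.0, 40.3, 163 and 41.1 in mice 2, 7, 12, 14 and 15. In GUCY2Cmed cells it was 6.74, 11.2, 7.92, 9.91 and 11.1. The lowest GUCY2Chi library was above the highest GUCY2Cmed library, and all 5 mice went the same way. The log2 fold change was 3.15 ± 0.39, with a 95% interval from 2.30 to 4.0, an 8.89-fold higher level (adjusted p = 0.000158, edgeR). It was called in 23 of 23 alternative settings, the replicate block included.

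Within the GUCY2Chi group, Cd44 was highest in mouse 14 and lowest in mice 12 and 15, the 2 libraries with the highest enterocyte sums. The sum of the enteroendocrine markers was 100287, 113627, 69914, 123133 and 30236 in mice 2, 7, 12, 14 and 15, again highest in mouse 14 and lowest in mice 12 and 15. Cd44 is also carried by many leukocytes. The sum of 8 immune markers ran from 13 to 42.8 cpm in GUCY2Chi and from 8.99 to 36.1 cpm in GUCY2Cmed libraries, none of the 7 tested was called, and the libraries highest for it in GUCY2Chi, mice 12 and 15, were the lowest for Cd44. The sum of 7 markers of mesenchyme and endothelium ran from 1.93 to 16.6 cpm in GUCY2Chi and from 0 to 7.21 cpm in GUCY2Cmed libraries. Only 3 of the 7 passed the filter, and 13.9% of all genes tested were called higher. Col1a2 and Pecam1 were called higher (adjusted p = 0.00173 and 0.00546, edgeR) and Dcn was not. Col1a2 and Pecam1 passed the filter through GUCY2Chi libraries alone, so they could only come out higher. In GUCY2Chi cells these 2 were low, at 0.883 ± 0.406 and 2.4 ± 2.55 cpm. Neither was called with the replicate block (adjusted p = 0.0333 and 0.0378, edgeR). The part of enteroendocrine, enterocyte, immune, mesenchymal or endothelial RNA in the level of Cd44 was not tested.

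Rgmb, a membrane-anchored co-receptor for bone morphogenetic proteins listed among stem cell signature genes, rose less. Its cpm in GUCY2Chi cells was 37.4, 44.9, 33.0, 50.3 and 32.7 in mice 2, 7, 12, 14 and 15. In GUCY2Cmed cells it was 25.7, 22.3, 22.8, 20.5 and 24.3. The groups did not overlap, and mouse 14 was highest in GUCY2Chi and lowest in GUCY2Cmed cells. The log2 fold change was 0.78 ± 0.16, a 1.72-fold higher level (adjusted p = 0.00371, edgeR). The replicate block moved it past the threshold (adjusted p = 0.0191, edgeR; 8.24% of all genes called higher), as did the block in limma-voom (0.0143; 11.6% called higher) and leaving out the GUCY2Cmed library of mouse 14.

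**Figure D3:**
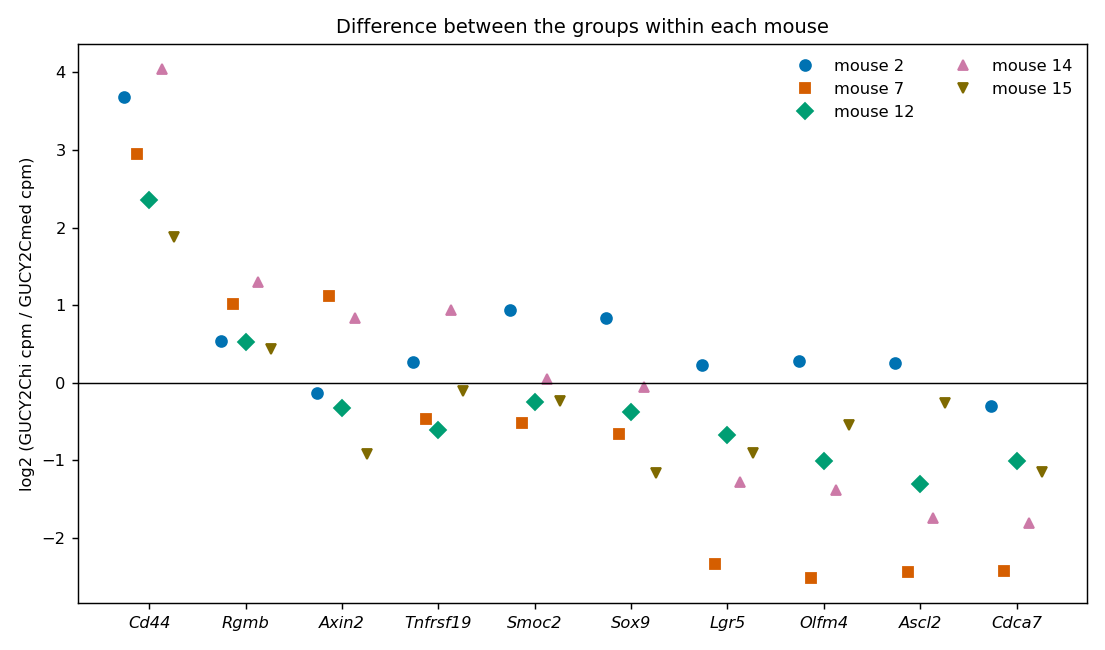
Log2 ratio of GUCY2Chi to GUCY2Cmed cpm within each of 5 mice, 1 symbol per mouse, for the 10 genes. Lgr5, Olfm4, Ascl2 and Cdca7 place mouse 2 highest and mouse 7 lowest, from 0.28 down to -2.51, while every ratio of Cd44 lies between 1.88 and 4.04.

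The remaining 4 genes overlapped between groups, and none kept its direction in every alternative setting. Smoc2, a secreted matricellular protein, was at 63.4 ± 16.8 cpm in GUCY2Chi and 64.1 ± 21.1 cpm in GUCY2Cmed cells, a log2 fold change of -0.02 with a 95% interval from -0.55 to 0.52. Sox9, a transcription factor of the crypt base and of Paneth cells, was at 30.6 ± 16.4 and 34.4 ± 10.3 cpm, a log2 fold change of -0.17 with an interval from -0.92 to 0.58. Its GUCY2Chi libraries ran from 15.1 cpm in mouse 15 to 56.8 cpm in mouse 2. The genes nearest to Sox9 in profile were Sart3, a spliceosome recycling factor (0.191), Ik, a spliceosome component (0.212), and Rassf6 (0.216), none of them a gene of the list. Of the listed genes, Smoc2 was 103rd of 9975 (0.328) and Lgr5 5314th (0.726).

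Axin2, the scaffold of the beta-catenin destruction complex that Wnt signalling itself induces, was at 2.14 ± 0.79 cpm in GUCY2Chi and 1.98 ± 0.722 cpm in GUCY2Cmed cells, from 15 to 55 reads a library. Its log2 fold change was 0.12 with an interval from -0.71 to 0.94. Tnfrsf19, a receptor of the TNF family that binds LGR5, was at 2.35 ± 0.7 and 2.28 ± 0.411 cpm, from 23 to 43 reads a library, with a log2 fold change of 0.04 and an interval from -0.64 to 0.71. The intervals of these 4 genes leave room for changes in either direction.

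**Figure D4:**
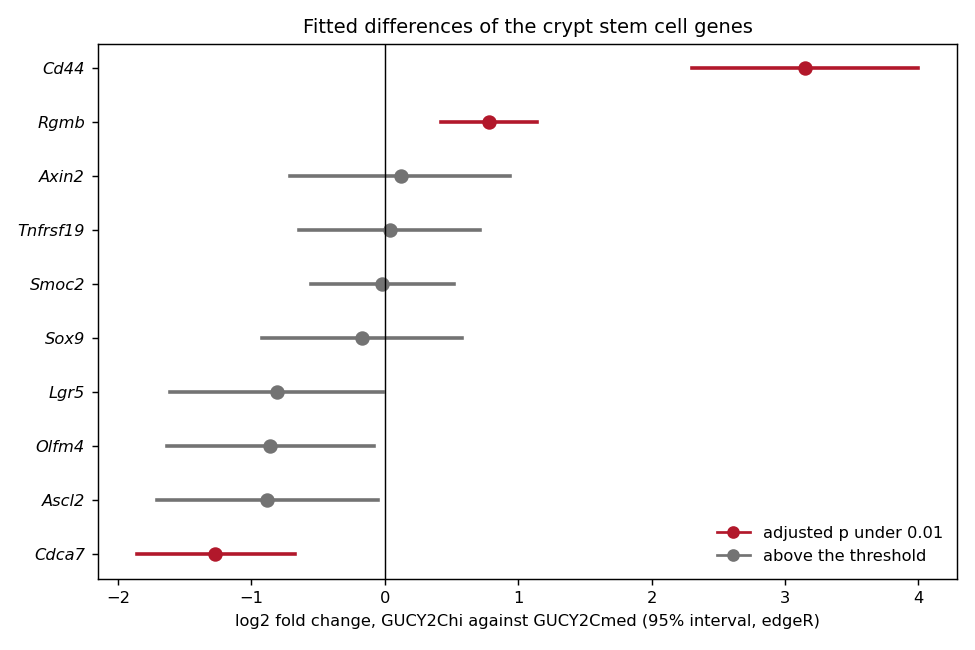
Log2 fold change of GUCY2Chi against GUCY2Cmed cells with its 95% interval from edgeR, in red for an adjusted p under 0.01. Cd44 (3.15) and Rgmb (0.78) lie to the right of 0 and Cdca7 (-1.27) to the left. The intervals of Lgr5, Olfm4 and Ascl2 have their upper ends just left of 0.

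Levels of different genes were compared as FPKM, reads scaled for gene length and depth, by the median of 5 libraries. In GUCY2Cmed cells Olfm4 was highest at 471 FPKM, followed by Cdca7 at 60, Smoc2 at 28.9, Ascl2 at 14, Rgmb at 12.3, Sox9 at 6.81, Cd44 at 3.18, Lgr5 at 2.9, Axin2 at 0.961 and Tnfrsf19 at 0.955. In GUCY2Chi cells Olfm4 stayed first at 255 FPKM, Cd44 was 4th at 34.2, Ascl2 was 7th at 7.12, and Lgr5 was 8th at 1.71. Several neighbours in these orders overlapped in range, such as Ascl2 (12.4 to 20.3) and Rgmb (10.9 to 14.9), and Lgr5 (2.5 to 3.45) and Cd44 (2.36 to 3.76), in GUCY2Cmed cells. For every gene but Sox9 the FPKM rest on a shorter length than the deposited table lists. With the table's lengths Cd44 was 2nd in GUCY2Chi cells and Ascl2 3rd in GUCY2Cmed cells.

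Across all genes tested, 13.9% were called higher and 8.79% lower. Of 14 further signature genes, 4 were called higher and none lower, with a median log2 fold change of 0.65. These were Igfbp4, a binding protein of insulin-like growth factors (2.07 ± 0.29, adjusted p = 0.000374), Hopx, a homeodomain protein used to mark reserve stem cells (1.92 ± 0.27, 0.0004), Bmi1, a Polycomb subunit used in the same way (1.50 ± 0.23, 0.00063), and Soat1, a cholesterol-esterifying enzyme (1.41 ± 0.25, 0.00139), all by edgeR. Hopx was abundant, at 655 ± 198 cpm against 173 ± 44 cpm. All 10 enteroendocrine markers were also called higher in GUCY2Chi cells. The part of enteroendocrine or other cells' RNA in the levels of these 4 genes was not tested. Soat1 was not called with the replicate block (adjusted p = 0.0127, edgeR). That block left 3 of the 14 called higher, beside 8.24% of all genes. Another 4 genes of the list had negative log2 fold changes and were not called, as Lgr5 was not. These were Slc12a2 at -0.89 (adjusted p = 0.0134), Tert at -1.43 (0.0269), Gkn3 at -1.29 (0.0996) and Cdk6 at -0.57 (0.229), by edgeR. Slc12a2 and Tert were lower in 5 of 5 mice, Tert on at most 32 reads a library, and Gkn3 and Cdk6 in 4. The rest of the list was not called either and had positive values. Fstl1 was at 2.36 (adjusted p = 0.0139), Msi1 at 2.35 (0.0391) and Lrig1 at 0.67 (0.198), by edgeR. Prom1 was at 0.63 (adjusted p = 0.078), Mex3a at 0.61 (0.317) and Aqp4 at 0.11 (0.785), also by edgeR. Fstl1, Msi1 and Mex3a were higher in 5 of 5 mice, the last 2 on at most 14 reads a library. Tert, Gkn3, Cdk6 and these positive genes are named after their values were seen.

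Among Wnt and R-spondin ligands and the proteins that process them, 12 of 25 passed the filter, 4 were called higher and none lower. Of these 4, Rspo4 and Wnt9b were below 0.5 cpm in every GUCY2Cmed library. They passed the filter through GUCY2Chi libraries alone, so they could only come out higher. The shares over all genes tested were 13.9% and 8.79%. Wnt3, the canonical Wnt of Paneth cells, was at 64.6 ± 20.9 cpm in GUCY2Chi and 2.63 ± 0.795 cpm in GUCY2Cmed cells, a log2 fold change of 4.60 ± 0.32 (adjusted p = 4.82e-06, edgeR). Wls, the carrier that brings Wnt proteins to the surface, rose by a log2 fold change of 1.38 ± 0.24 (adjusted p = 0.00137, edgeR). Rspo4, an R-spondin, had no read in any GUCY2Cmed library and 3.61 ± 2.09 cpm in GUCY2Chi cells, at least 14.8-fold higher than 3 counts per library would give. Wnt9b, another Wnt, had 59 reads in GUCY2Chi and 5 in GUCY2Cmed libraries, a ratio of 9.95 with a 95% counting interval from 4.03 to 31.8. The groups overlapped for Wnt9b, which was higher in GUCY2Chi cells in 4 mice and lower in 1. Rspo4 and Wnt9b were not called with the replicate block (adjusted p = 0.0112 and 0.0476, edgeR). That block left 2 of the 12 called higher, Wnt3 and Wls, beside 8.24% of all genes.

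Of 15 receptors tested, 2 were called higher and 1 lower, close to the shares over all genes (13.9% and 8.79%). Fzd1 (2.07 ± 0.38, adjusted p = 0.00175), a Frizzled, and Ror2 (2.02 ± 0.46, adjusted p = 0.00589), a receptor of noncanonical Wnt, rose, and Fzd5, the main Frizzled of Paneth cell maturation, fell (-1.31 ± 0.33, adjusted p = 0.0096), all by edgeR. Fzd7, a Frizzled of Lgr5 stem cells, had a log2 fold change of 1.38 and was not called (adjusted p = 0.0118, edgeR). Ror2 and Fzd5 were not called with the replicate block (adjusted p = 0.0287 and 0.0372, edgeR).

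Inside the cell, 2 of 22 genes of the destruction complex and its nuclear effectors were called higher and 1 lower, no larger a share than over all genes. Tle2, a Groucho co-repressor, rose from 0.305 ± 0.195 to 10.6 ± 6.9 cpm (adjusted p = 0.00027, edgeR), whereas Tle4, a co-repressor of the same family, fell from 28.1 ± 6.34 to 11.4 ± 2.86 cpm (adjusted p = 0.00157, edgeR). Btrc, the ubiquitin ligase subunit that recognises beta-catenin, rose by 0.86 on the log2 scale (adjusted p = 0.00956, edgeR), and Dvl2, a Dishevelled, differed by 1.31 and was not called (adjusted p = 0.012). Tle4 was not called with the replicate block (adjusted p = 0.0107, edgeR). Tle2, below 0.5 cpm in every GUCY2Cmed library, passed the filter through GUCY2Chi libraries alone and could only come out higher.

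Of 11 feedback inhibitors and targets, 1 was called higher and 1 lower, also near the shares over all genes. Wif1, a secreted Wnt inhibitor, was at 34.1 ± 12 cpm in GUCY2Chi cells and had 3 reads over all GUCY2Cmed libraries, a ratio of 694 with a 95% counting interval from 237 to 3369 (adjusted p = 3.76e-06, edgeR). Wif1 passed the filter through GUCY2Chi libraries alone, so it could only come out higher. Ccnd1, the cyclin D1 gene, fell (-1.17 ± 0.30, adjusted p = 0.0099, edgeR). Sp5, a direct target of beta-catenin, differed by -1.80 on the log2 scale (adjusted p = 0.0102, edgeR) and Myc by -0.89 (adjusted p = 0.0138, edgeR), and neither was called. With the replicate block the calls changed places, Sp5 being called (adjusted p = 0.00793, edgeR) and Ccnd1 not (0.0187).

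**Figure D5:**
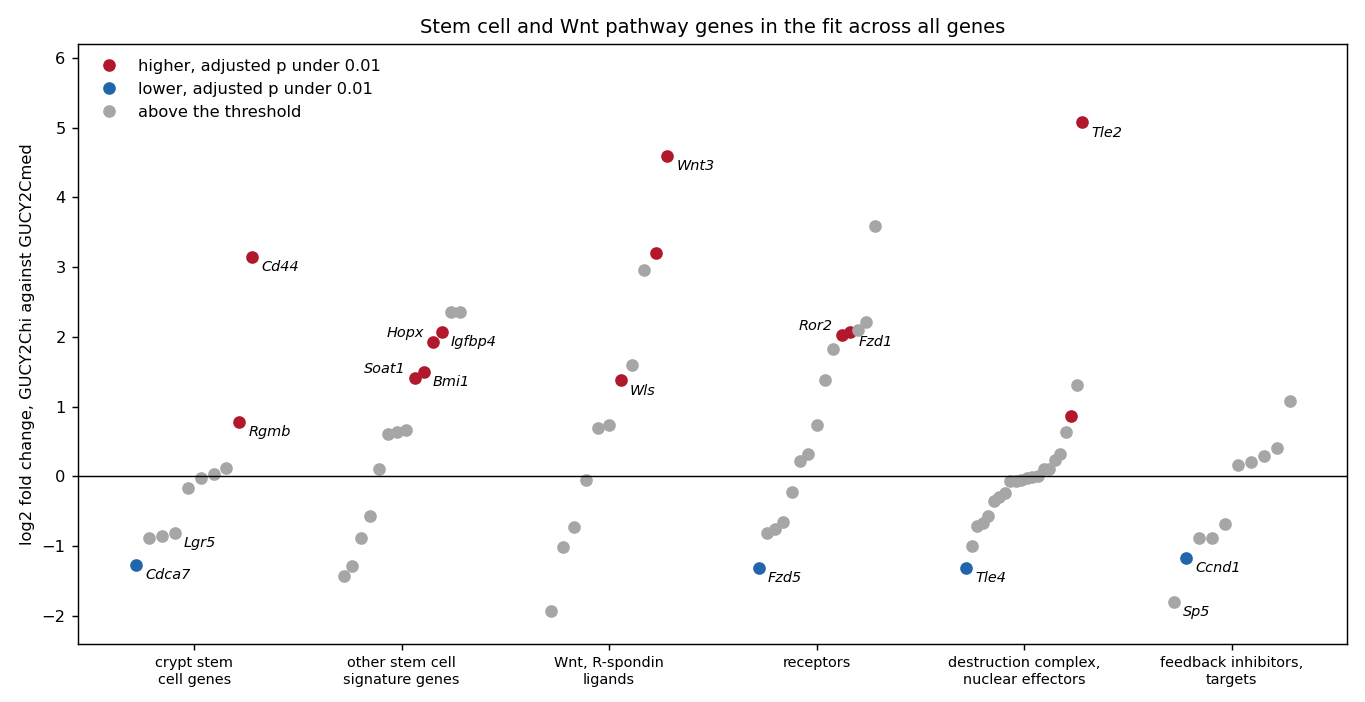
Log2 fold change of each tested gene in the crypt stem cell list and 5 lists of stem cell and Wnt pathway genes, 1 point per gene, red for called higher and blue for called lower by edgeR. Wif1 and Rspo4, with 3 and 0 reads over all GUCY2Cmed libraries, are left out, and every list of the pathway holds genes on both sides of 0.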

How the data were processed

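RNA of 10 libraries was analysed, 5 per group. The raw read counts per gene, as deposited, came from the sequencing provider, who used STAR for alignment. FPKM values deposited by the authors were scaled for length and depth. The submitters' processing notes name limma 3.40.6 and edgeR 3.26.8. The labels name mm9, but 99.9% of 37624 gene symbols overlap their GRCm38 position and 9.66% of 28329 their NCBIM37 position, so positions are on GRCm38. Not used were 10 other columns of per-sample values, 3 columns of the authors' comparison, and their limma tables, which hold log2 fold changes, p-values and statistics.

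Genes with over 0.5 cpm in at least 3 libraries were kept, 15703 of 54532. Groups were compared in R 4.3.3 with edgeR 4.0.16 (glmQLFit, glmQLFTest, TMM factors, no term for the mouse). The common biological coefficient of variation was 0.458. The alternatives were limma-voom (limma 3.58.1), DESeq2 1.42.0, the replicate block, other scalings and filters, and libraries left out. Summaries used scipy 1.17.1, numpy 2.4.6 and pandas 2.3.3 under Python 3.11.15, and plots matplotlib 3.10.9. The code was tested on simulated data, where estimates were unbiased but many genes given moderate changes were missed at this threshold, and the criteria for passing were loosened after its output was seen. A gene not called may therefore still differ. Exact permutation tests were two-sided on log2 cpm with a prior count of 2, and 5 against 5 libraries allow no p below 0.00794. They exchanged libraries freely and did not keep those of 1 mouse paired. Counting intervals and floors (3 counts) cover counting error only.

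The 10 genes and all lists were chosen with earlier results of these data known. Named are the 10 genes, up to 4 genes with the smallest p of each pathway list, and the 3 nearest profiles of Lgr5, Olfm4 and Sox9. The numbers in the titles (2, 7, 12, 14, 15) were taken to pair the libraries, since 5 mice each gave both groups, but the labels do not say that a number is a mouse. Deviations of same-numbered libraries from their group means correlated at -0.11, -0.223, 0.272, -0.124 and 0.0607, and the best partner was the same number for 12 alone, so these values do not show the pairing. No 2 libraries of the same group agreed within sampling noise. Genes overlapping the 10 in the annotation, such as the lincRNA Gm6999 at Olfm4, held at most 11 counts in any library.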

Additional observations from a re-analysis of the deposited data

How the results depend on the processing

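Cd44 was called higher in all 23 alternatives, with log2 fold changes between 2.62 and 3.59, Rgmb in 18 and Cdca7 lower in 14. Lgr5, Olfm4 and Ascl2 were lower and not called in all 23, with log2 fold changes from -1.12 to -0.53, from -1.12 to -0.58 and from -1.16 to -0.59. With the mouse as replicate block, 1294 genes were called higher and 779 lower by edgeR, beside 2186 and 1381, and of the 10 genes 1 was higher and 0 lower, also with the block in limma-voom. DESeq2 called 2235 genes lower. With library size only, 557 genes were called lower, 0 of the 10 among them, and the median log2 fold change of all genes moved from 0.09 to 0.39. With any single library left out, 1636 to 2534 genes were called higher and 512 to 1609 lower, and of the 10 genes 1 to 2 higher and 0 to 1 lower. Without the GUCY2Chi libraries of mice 12 and 15, 2186 genes were called lower.

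Another 3 exclusions of GUCY2Chi libraries were chosen after seeing the data. Without mice 2 and 7, a pair picked in the mistaken belief that it held the most forebrain RNA, 1068 genes were called higher and 107 lower, and of the 10 genes 1 higher and 0 lower. Without mice 2 and 14, highest in Paneth markers, the counts were 1106 and 88, and 1 and 0. Without mice 7 and 15, highest in forebrain markers, 846 were called lower, and of the 10 genes 0 lower and 2 higher. Every setting that leaves out libraries has fewer samples, and the cause of the shifts was not tested.

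Log2 fold changes turned direction in some settings, none of them called. Axin2 was at -0.09 and -0.03 without the GUCY2Chi library of mouse 7 or the GUCY2Cmed library of mouse 14, at -0.25 without GUCY2Chi mice 2 and 7, and at -0.0041 without 7 and 15. Smoc2 was at 0.27 with library size only, 0.05 with upper-quartile factors, 0.12 with at least 10 counts in every library, 0.09 without GUCY2Chi mouse 12 or 15, 0.20 without GUCY2Cmed mouse 7, 0.24 without GUCY2Chi mice 12 and 15 and 0.05 without 7 and 15. Sox9 was at 0.11 with library size only, 0.03 without GUCY2Chi mouse 15, 0.02 without GUCY2Cmed mouse 7, 0.24 without GUCY2Chi mice 12 and 15 and 0.03 without 7 and 15. Tnfrsf19 was at -0.01 with limma-voom, -0.11 and -0.05 without the GUCY2Chi or the GUCY2Cmed library of mouse 14, and -0.24 without GUCY2Chi mice 2 and 14. With any single library left out, Axin2 ran from -0.09 to 0.30, Smoc2 from -0.09 to 0.20, Sox9 from -0.46 to 0.03 and Tnfrsf19 from -0.11 to 0.18. Lgr5, Axin2 and Tnfrsf19 rest on 15 to 124 reads a library, and what sets the width of each gene's interval was not tested.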
